A study of Homo sapiens with 6 samples.

Results

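The nuclear-encoded subunits of the respiratory chain and ATP synthase were followed in Raji cells in which OBF1 had been lowered by a short hairpin RNA (shRNA). Members were the protein-coding genes whose current RefSeq symbols follow the naming scheme of the subunits: NDUFA, NDUFB, NDUFC, NDUFS and NDUFV with a number (complex I), SDHA to SDHD (complex II), UQCR (complex III), COX5 to COX8 (complex IV) and ATP5F, ATP5M and ATP5P (complex V). The scheme found 82 members among the 23459 genes of the table, namely 36 of complex I, 4 of complex II, 9 of complex III, 15 of complex IV and 18 of complex V. COX4I1, CYC1, NDUFAB1 and COXFA4, the current name of NDUFA4, are subunits whose symbols fall outside it, and they are given apart.

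Raji is a long-established human cell line from a Burkitt's lymphoma, a tumour of germinal centre B cells, and carries Epstein-Barr virus. The tested cells carried OBF1sh1, a hairpin against OBF1, a B cell transcriptional coactivator encoded by POU2AF1, and the control cells carried the non-target hairpin SHC002. Both hairpins were delivered in the lentiviral vector pLKO.1 over 5 days of infection, and both cell pools were kept under 3 μg/ml puromycin for 7 days, so every library comes from transduced and selected cells. Poly(A) RNA was sequenced in 3 libraries per group, and only 1 hairpin against OBF1 was used, so effects of the hairpin other than through OBF1 cannot be told apart. Whether the 3 libraries of each hairpin are separate cultures is not stated in the labels, so p-values reflect the spread among the libraries alone, and that spread may be technical. In bulk RNA, fewer cells of a type and less RNA per cell cannot be told apart.

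The respiratory chain sits in the inner mitochondrial membrane. Complex I takes electrons from NADH and complex II from succinate, both pass them through ubiquinone to complex III, and cytochrome c carries them on to complex IV, which reduces oxygen. Complexes I, III and IV pump protons while doing so, and complex V, the ATP synthase, lets the protons return and makes ATP. Most subunits are encoded in the nucleus and imported, while a few catalytic subunits of complexes I, III, IV and V are encoded by mitochondrial DNA, which were not analysed here.

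Each library held between 29569281 and 32612429 gene counts. Levels are read counts relative to the library's total after trimmed-mean (TMM) scaling (CPM). Where levels of different genes are ranked, they are given per kilobase of the deposited gene length (RPKM). Ratios and shares of counts within a library are not corrected for gene length. They serve to compare the groups, and not the levels of the genes. The targeted transcript POU2AF1 had 244, 241 and 241 CPM in the OBF1 shRNA libraries, against 512, 516 and 512 CPM in the control libraries, and was 2.12-fold lower in the OBF1 shRNA libraries (edgeR adjusted p = 1.25e-17). The B cell markers MS4A1, CD79A, CD79B, PAX5 and CD22 summed to between 3837 and 3879 CPM in OBF1 shRNA and between 2247 and 2314 CPM in control libraries, and 4 of these 5 rose. Most of the difference in the sum lay in MS4A1, at 2078 against 702 CPM on average in OBF1 shRNA and control libraries. CD79B, at 610 against 664 CPM, fell. The germinal centre markers MME, BCL6, CD38 and MEF2B, summing to 399.6 to 403 CPM in OBF1 shRNA and 800.5 to 804 CPM in control libraries, all fell. These counts stand beside 37.5% higher and 37.9% lower of all genes tested, 75.4% in either direction. For 6 genes of T and NK cells the sum was 0.844 to 0.926 CPM in OBF1 shRNA and 0.0640 to 0.208 CPM in control libraries, with CD3D and GNLY at 0 in all 6 libraries. The 6 myeloid markers summed to 1.97 to 2.20 CPM in OBF1 shRNA and 1.90 to 1.98 CPM in control libraries, and the 6 markers of the 293T packaging cells to at most 0.106 CPM in OBF1 shRNA and 0.128 CPM in control libraries. NKG7, the only T and NK cell marker past the count filter, rose. Whether these markers bear on the results was not tested.

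Transcripts of the respiratory chain subunits were mostly higher in OBF1 shRNA cells, by modest amounts and in every complex. Of the 82 members, 77 passed the count filter. The other 5, COX6A2, COX6B2, COX7A1, COX7B2 and COX8C, had at most 1 count in any library. Among the 77, 69 rose, 3 fell and 5 did not pass the test (edgeR, adjusted p under 0.05, with adjustment by Benjamini and Hochberg's method over all 12010 genes tested). Over all genes tested, 37.5% rose and 37.9% fell, 75.4% in either direction, so most genes of these libraries passed the test in one direction or the other. The median log2 fold change of the members was 0.34, beside -0.01 over all genes tested, and their range ran from -0.20 for NDUFB9 to 0.92 for NDUFB1. The groups did not overlap for 71 of the 77 members, beside 76.6% of all genes tested. Only 4 members rose by at least 1.5-fold, against a background of 12.9%, and 0 fell by as much, against a background of 10.4%. Tested against a fold change of 1.2 with edgeR's glmTreat, 45 members were higher and 0 lower, beside 21.3% higher and 19.4% lower of all genes tested.

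Summed over all members, the level was 14797, 14580.0 and 15012 CPM in the OBF1 shRNA libraries, against 11424, 11898 and 11486 CPM in the control libraries. All 3 OBF1 shRNA libraries were above all 3 control libraries, a ratio of means of 1.28. As a share of the raw counts of a library, the members took 1.41% to 1.44% in OBF1 shRNA and 1.19% to 1.23% in control libraries. Such a share amounts to scaling by library size, without the TMM factor. Scaling moves the size of the shift. With library sizes alone, without the TMM factor, the median of all genes tested moves by -0.11 on the log2 scale and that of the members by the same amount. Then 63 members rose and 7 fell, beside 28.9% higher and 48.1% lower of all genes tested. Of the 77 members, 72 were above the median of all genes tested. A change of scaling moves all genes by nearly the same amount. This count was therefore bound to be the same under both scalings.

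**Figure D1:**
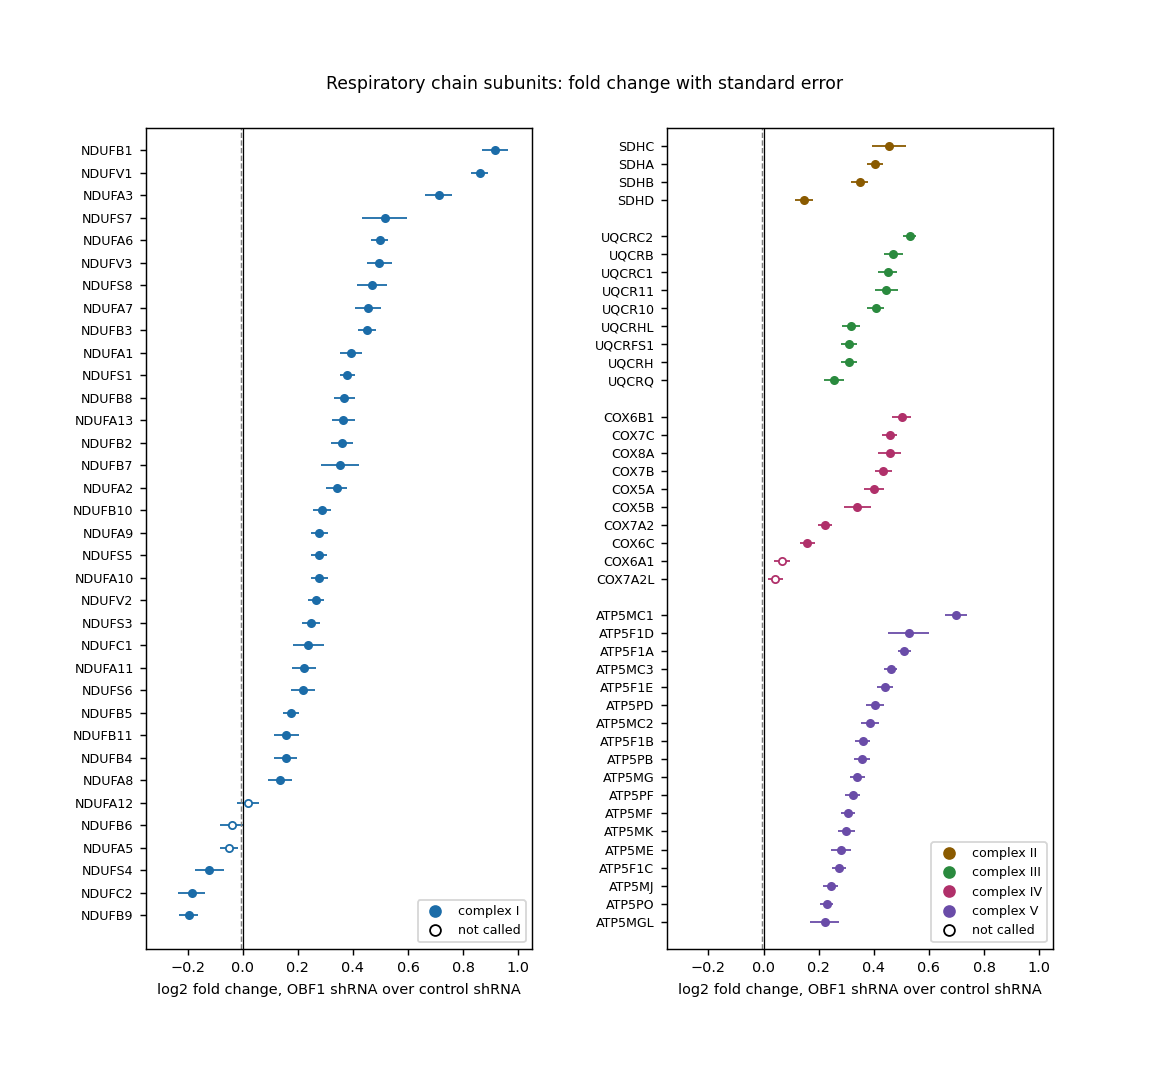
Log2 fold change of OBF1 shRNA over control shRNA libraries for 76 of the 77 members tested, with bars for the standard error, 3 libraries per group, complex I on the left and complexes II to V on the right. Filled points passed the edgeR test and open points did not, and the dashed line is the median of all genes tested, -0.01. NDUFB1, NDUFV1, NDUFA3 and ATP5MC1 lie furthest to the right, and the 3 members that fell all belong to complex I.

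The promoters of the 4 members with the largest rises and of NDUFS4, which fell, are shown. NDUFS4 had the smallest of the 3 falls (log2 fold change -0.12), and its call was lost under several other settings. NDUFB9 (-0.20) and NDUFC2 (-0.18), which fell more, are not shown, so motif content cannot be set against direction from these 5 promoters. Sequences are RefSeq's for GRCh38.p14, 250 bases before to 50 after the gene's start, read 5′ to 3′ on the gene's strand. Capitals mark matches to any of 4 motifs searched on both strands, the octamer ATGCAAAT that Oct factors and OBF1 bind, GCGCA, any base and GCGC in a row for NRF1, CCGGAAG for Ets factors such as GABP, and AAGATGG for YY1. The windows are chr14:92121657-92121956, minus strand for NDUFB1, chr11:67606686-67606985, plus strand for NDUFV1, chr19:54102605-54102904, plus strand for NDUFA3, chr17:48892537-48892836, plus strand for ATP5MC1 and chr5:53560389-53560688, plus strand for NDUFS4.
NDUFB1: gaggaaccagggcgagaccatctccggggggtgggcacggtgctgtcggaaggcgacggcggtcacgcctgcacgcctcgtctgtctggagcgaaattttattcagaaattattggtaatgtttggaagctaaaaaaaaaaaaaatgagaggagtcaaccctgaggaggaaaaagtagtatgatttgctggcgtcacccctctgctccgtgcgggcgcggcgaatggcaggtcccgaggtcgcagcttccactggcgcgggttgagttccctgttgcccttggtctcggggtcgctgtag
NDUFV1: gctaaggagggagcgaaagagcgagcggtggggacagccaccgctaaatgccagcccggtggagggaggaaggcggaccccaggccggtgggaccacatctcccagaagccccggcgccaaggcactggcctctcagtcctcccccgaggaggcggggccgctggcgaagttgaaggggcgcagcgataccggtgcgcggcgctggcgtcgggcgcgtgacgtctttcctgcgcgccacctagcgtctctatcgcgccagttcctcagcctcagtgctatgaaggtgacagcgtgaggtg
NDUFA3: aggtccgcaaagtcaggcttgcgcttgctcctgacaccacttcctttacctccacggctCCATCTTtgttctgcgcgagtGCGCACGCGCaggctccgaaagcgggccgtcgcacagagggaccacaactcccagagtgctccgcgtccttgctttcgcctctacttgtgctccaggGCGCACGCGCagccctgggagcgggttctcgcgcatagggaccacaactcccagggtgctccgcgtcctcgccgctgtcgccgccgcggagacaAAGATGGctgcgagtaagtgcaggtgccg
ATP5MC1: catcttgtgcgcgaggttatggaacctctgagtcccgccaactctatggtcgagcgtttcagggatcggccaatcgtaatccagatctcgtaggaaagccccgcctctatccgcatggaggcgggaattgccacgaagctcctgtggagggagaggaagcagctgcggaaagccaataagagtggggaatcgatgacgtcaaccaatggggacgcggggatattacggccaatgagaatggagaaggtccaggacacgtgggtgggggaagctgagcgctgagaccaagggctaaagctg
NDUFS4: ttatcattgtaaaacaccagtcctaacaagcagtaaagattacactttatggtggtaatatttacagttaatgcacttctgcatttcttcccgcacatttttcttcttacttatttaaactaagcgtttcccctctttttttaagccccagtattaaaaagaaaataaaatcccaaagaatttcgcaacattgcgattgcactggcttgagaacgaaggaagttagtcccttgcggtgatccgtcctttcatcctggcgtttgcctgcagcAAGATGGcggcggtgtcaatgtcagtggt

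The promoters of NDUFB1, NDUFV1 and ATP5MC1 held none of the 4 motifs, that of NDUFA3 had 2 matches each for NRF1 and YY1, and that of NDUFS4 had 1 for YY1. Promoter sequences were found for 67 of the 82 members, in 80 windows because some genes have several starts, and matches of different motifs did not overlap in any of them. The octamer was in 0 of the 80 windows and in 1.77% of all 35116 promoters of the same length. The NRF1 motif was in 21.2% of the windows beside 5.78% of all promoters, the Ets motif in 26.2% beside 10.3%, and the YY1 motif in 23.8% beside 5.84%. Of the 17 members with the NRF1 motif, which include COX8C that was not tested, 15 rose and 0 fell. Of the 20 with the Ets motif 19 rose and 0 fell, and of the 18 with the YY1 motif 15 rose and 1 fell. Of all 77 members tested, 69 rose (89.6%), so these counts do not set members with a motif apart. Members with and without a motif had median log2 fold changes of 0.28 and 0.36 (NRF1), 0.34 and 0.36 (Ets), and 0.35 and 0.34 (YY1). A match to these letters is no evidence of binding, and the windows leave out any site further away.

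The sums of the complexes rose by similar amounts. Complex I members summed to 3761, 3628 and 3776 CPM in the OBF1 shRNA libraries, against 2952, 3063 and 2945 CPM in the control libraries, a ratio of means of 1.25. The sums for complex V were 6327, 6249.7 and 6419 CPM in the OBF1 shRNA libraries, against 4759.7, 4961 and 4808 CPM in the control libraries, a ratio of 1.31. The ratio was 1.23 for complex II, 1.33 for complex III and 1.21 for complex IV. Sums and shares of counts weigh abundant genes most. In complex IV, COX7A2, which rose 1.17-fold, held 804 of 2428 CPM on average in the OBF1 shRNA libraries. In complex V, ATP5F1A and ATP5F1B, which rose 1.42-fold and 1.28-fold, held 1173 and 1753 of 6332 CPM there. In each complex the OBF1 shRNA libraries were all above the control libraries. Shares of the members' counts within a library do not depend on scaling between libraries. Complex III took 12.28% to 12.34% of them in OBF1 shRNA and 11.78% to 11.85% in control libraries, and complex V 42.76% to 42.87% and 41.66% to 41.86%. The shares of complex I (24.89% to 25.41% in OBF1 shRNA and 25.64% to 25.85% in control libraries) and complex IV (16.15% to 16.59% and 17.19% to 17.35%) were lower in all 3 OBF1 shRNA libraries. Complex II took 3.309% to 3.342% in OBF1 shRNA and 3.376% to 3.497% in control libraries. By median log2 fold change the complexes lay at 0.28 (I), 0.38 (II), 0.41 (III), 0.37 (IV) and 0.35 (V), with ranges of single members that overlap. The differences between complexes were not tested.

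**Figure D2:**
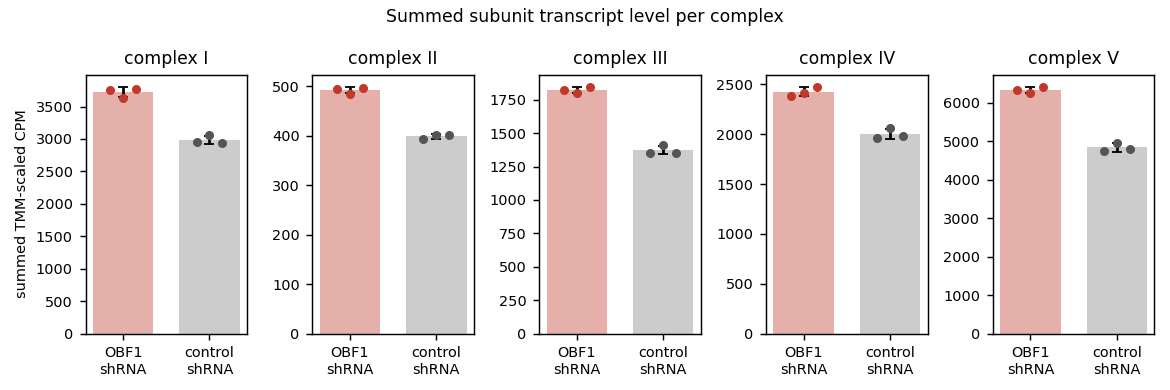
Summed TMM-scaled CPM of the members of each complex, with OBF1 shRNA on the left and control shRNA on the right of each panel. Bars are means of 3 libraries, error bars the SD and points single libraries, and the vertical axes start at 0 and differ between panels. In each panel the 3 OBF1 shRNA points lie above the 3 control points.

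Complex I had 30 of its 36 members higher, 3 lower and 3 that missed the threshold. Its matrix arm has an N module, which oxidises NADH, and a Q module, which hands the electrons to ubiquinone, and its membrane arm pumps protons. NDUFV1, the N module subunit that binds NADH and the flavin, had the largest change of the matrix arm. It had 413, 379 and 404 CPM in the OBF1 shRNA libraries, against 222, 224 and 213 CPM in the control libraries, 1.81-fold higher (log2 fold change 0.86, SE 0.03, edgeR adjusted p = 2.92e-14). The OBF1 shRNA libraries lay far above the control libraries, with no overlap. Its partners had smaller fold changes. NDUFV2, an iron-sulphur subunit, rose by 0.27 on the log2 scale and NDUFS1, the largest iron-sulphur subunit of the arm, by 0.38. Within a library there were 3.341, 3.018 and 3.183 NDUFV1 counts per NDUFV2 count in the OBF1 shRNA libraries, against 2.165, 2.15 and 2.011 in the control libraries. Against NDUFS1 these ratios were 2.05, 1.843 and 2.027 in the OBF1 shRNA libraries, against 1.465, 1.427 and 1.351 in the control libraries. NDUFV1 thus took 10.44% to 10.99% of the counts of complex I members in OBF1 shRNA and 7.248% to 7.515% in control libraries.

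Of the 10 N module members 8 rose. Besides those given, NDUFV3 (1.41-fold), NDUFA6 (1.41-fold), NDUFA7 (1.37-fold), NDUFA2 (1.27-fold) and NDUFS6 (1.16-fold), accessory subunits of this module or of its border with the Q module, were among them. NDUFA12, the accessory subunit that takes the place of an assembly factor late in assembly, did not pass the test (log2 fold change 0.02, 95% interval -0.07 to 0.10, edgeR adjusted p = 0.676), and with library sizes alone its value was -0.09 and passed (adjusted p = 0.0492). NDUFS4, an accessory subunit whose loss causes Leigh syndrome, was the weakest call, with 22.7, 21.8 and 23.6 CPM in the OBF1 shRNA libraries, against 24.6, 25.8 and 23.8 CPM in the control libraries (log2 fold change -0.12, SE 0.05, edgeR adjusted p = 0.0434). Its groups did not overlap, but they lay close, with 23.6 CPM in the highest OBF1 shRNA library and 23.8 CPM in the lowest control library. The NDUFS4 call was lost with DESeq2 (adjusted p = 0.127), without the low-count filter (edgeR adjusted p = 0.0641), with the replicate block (edgeR adjusted p = 0.0799) and when edgeR was run with OBF1 shRNA replicate 1 left out (adjusted p = 0.0884), or OBF1 shRNA replicate 2 (0.177), control replicate 1 (0.0733) or control replicate 2 (0.185). In the Q module NDUFS7 and NDUFS8, which carry iron-sulphur clusters on the way to ubiquinone, rose 1.43-fold and 1.38-fold, and NDUFS3 1.19-fold. NDUFA5 did not pass (log2 fold change -0.05, 95% interval -0.12 to 0.02, edgeR adjusted p = 0.185). It passed as lower in edgeR with library sizes alone (log2 fold change -0.16, adjusted p = 0.000331) and without OBF1 shRNA replicate 1 (adjusted p = 0.0445).

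The membrane arm and its base gave 18 higher and 2 lower of 21 members, and held both the largest rise and the largest falls of the chain. NDUFB1, a small accessory subunit of the arm, had 43.2, 41.8 and 44.9 CPM in the OBF1 shRNA libraries, against 22.3, 23.9 and 22.7 CPM in the control libraries, 1.89-fold higher (log2 fold change 0.92, SE 0.05, edgeR adjusted p = 4.14e-12). NDUFA3, which sits at the base of the arm, had 55.2, 49.4 and 50.6 CPM in the OBF1 shRNA libraries, against 31.4, 33.2 and 30.1 CPM in the control libraries, 1.64-fold higher (log2 fold change 0.71, SE 0.05, edgeR adjusted p = 3.28e-10). Neither gene's groups overlapped. NDUFB9, which binds the mitochondrial acyl carrier protein in the distal part of the arm, had 137, 125 and 134 CPM in the OBF1 shRNA libraries, against 147, 154 and 152 CPM in the control libraries, 1.15-fold lower (log2 fold change -0.20, SE 0.03, edgeR adjusted p = 4.15e-05). NDUFC2, another accessory subunit of the arm, had 59.3, 55.7 and 56.3 CPM in the OBF1 shRNA libraries, against 59.8, 70.2 and 64.5 CPM in the control libraries, 1.14-fold lower (log2 fold change -0.18, SE 0.05, edgeR adjusted p = 0.00237). Both fell with no overlap, though the lowest control library of NDUFC2 (59.8 CPM) was near the highest OBF1 shRNA library (59.3 CPM). NDUFC2 shares its exons with a readthrough gene, NDUFC2-KCTD14, whose row, named after its values were seen, held 32.5 against 37.3 CPM on average in OBF1 shRNA and control libraries, and how shared reads were divided is not given in the sources used here. NDUFB6, at 42.1 against 43.2 CPM on average in OBF1 shRNA and control libraries, did not pass (95% interval of the log2 fold change -0.13 to 0.05, edgeR adjusted p = 0.401). With library sizes alone it passed as lower (log2 fold change -0.15, edgeR adjusted p = 0.00385). The other members of the arm that rose did so by 1.10-fold (NDUFA8) to 1.37-fold (NDUFB3). NDUFA8 and NDUFB11 passed although their groups overlapped, and with NDUFB4 they lost the call with library sizes alone (edgeR adjusted p = 0.576, 0.303 and 0.313 for NDUFA8, NDUFB11 and NDUFB4). NDUFA8 also lost it when OBF1 shRNA replicate 1 was left out (edgeR adjusted p = 0.0532) or control replicate 1 (adjusted p = 0.0632).

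**Figure D3:**
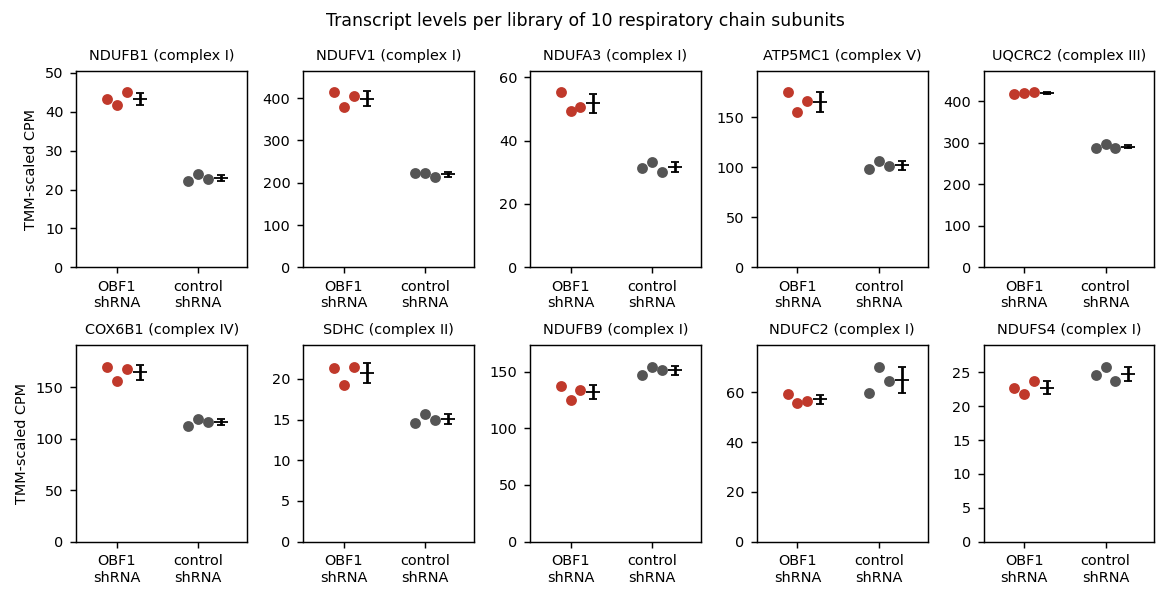
TMM-scaled CPM of 10 members in each library, with OBF1 shRNA on the left (red) and control shRNA on the right (grey) of each panel. Points are single libraries, the bar beside them the mean with its SD (n = 3), and the axes start at 0. The groups do not overlap in any panel. The first 7 genes were higher in OBF1 shRNA cells and NDUFB9, NDUFC2 and NDUFS4 lower, by 1.15-fold at most.

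Complex II, the succinate dehydrogenase that also serves the tricarboxylic acid cycle, is encoded by nuclear genes alone, and all 4 rose. SDHA, the flavoprotein that oxidises succinate, had 150.4, 151 and 146 CPM in the OBF1 shRNA libraries, against 112, 114 and 113 CPM in the control libraries, 1.32-fold higher (log2 fold change 0.40, SE 0.03, edgeR adjusted p = 3.79e-10). SDHB, the iron-sulphur subunit, had 163, 168 and 173 CPM in the OBF1 shRNA libraries, against 128, 135 and 132 CPM in the control libraries, 1.27-fold higher (log2 fold change 0.35, SE 0.03, edgeR adjusted p = 9.18e-09). Neither overlapped between the groups. Of the membrane anchors, SDHC had 21.3, 19.3 and 21.5 CPM in the OBF1 shRNA libraries, against 14.6, 15.7 and 14.9 CPM in the control libraries, 1.37-fold higher (log2 fold change 0.46, SE 0.06, edgeR adjusted p = 2.1e-06). SDHD had 159.9, 146 and 156 CPM in the OBF1 shRNA libraries, against 139, 137 and 142 CPM in the control libraries, 1.11-fold higher (log2 fold change 0.15, SE 0.03, edgeR adjusted p = 0.000668). SDHD thus changed least of the complex, and it lost its call with library sizes alone (edgeR adjusted p = 0.307). Per length, SDHC was the lowest of the complex, at 7.18 against 5.24 RPKM on average in OBF1 shRNA and control libraries, and SDHB the highest, at 147 against 115 RPKM.

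In complex III all 9 members rose, none by 1.5-fold. UQCRC2, a core protein on the matrix side, had 418, 419.8 and 421 CPM in the OBF1 shRNA libraries, against 288, 296 and 288 CPM in the control libraries, 1.44-fold higher (log2 fold change 0.53, SE 0.02, edgeR adjusted p = 7.1e-13). Its partner UQCRC1 had 231, 208 and 221 CPM in the OBF1 shRNA libraries, against 157, 165 and 162 CPM in the control libraries, 1.37-fold higher (log2 fold change 0.45, SE 0.03, edgeR adjusted p = 1.11e-09). Among the OBF1 shRNA libraries UQCRC2 varied less than UQCRC1, and neither gene's groups overlapped. UQCRB, which lies close to the ubiquinone site, had 235, 256 and 255 CPM in the OBF1 shRNA libraries, against 177, 186 and 176 CPM in the control libraries, 1.39-fold higher (log2 fold change 0.47, SE 0.03, edgeR adjusted p = 5.02e-10). The small subunits UQCR10 and UQCR11 rose 1.33-fold and 1.36-fold. UQCRFS1, the Rieske iron-sulphur protein that passes electrons towards cytochrome c, rose 1.24-fold. UQCRQ rose least (1.19-fold). UQCRH, the hinge protein, had 257, 241 and 251 CPM in the OBF1 shRNA libraries, against 198, 205 and 202 CPM in the control libraries, 1.24-fold higher. Its near copy UQCRHL had 135, 135 and 130.2 CPM in the OBF1 shRNA libraries, against 110.4, 108 and 104 CPM in the control libraries, 1.25-fold higher. Both rose with no overlap of the groups. UQCRHL held 34.14% to 35.93% of the counts of the pair in OBF1 shRNA and 33.95% to 35.84% in control libraries, and because the sequences are nearly the same, reads of the pair may have been split between the rows. The row of the pseudogene UQCRBP1, named after its values were seen, likewise held 41.8 against 30.5 CPM on average in OBF1 shRNA and control libraries.

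In complex IV 8 of the 10 members tested rose and 2 did not pass. COX6B1, which links the monomers on the side of the intermembrane space, had 170.1, 156 and 168 CPM in the OBF1 shRNA libraries, against 113, 119.5 and 117 CPM in the control libraries, 1.42-fold higher (log2 fold change 0.50, SE 0.03, edgeR adjusted p = 2.42e-10). COX7C had 264, 265 and 274 CPM in the OBF1 shRNA libraries, against 195, 199 and 190.5 CPM in the control libraries, 1.37-fold higher (log2 fold change 0.46, SE 0.03, edgeR adjusted p = 3.42e-11). COX8A had 152, 143 and 149 CPM in the OBF1 shRNA libraries, against 103, 117 and 102 CPM in the control libraries, 1.37-fold higher (log2 fold change 0.46, SE 0.04, edgeR adjusted p = 2.2e-08). COX7C and COX8A are small membrane subunits, and for these 3 genes every OBF1 shRNA library was above every control library. COX7B, another small membrane subunit, had 169, 173 and 178 CPM in the OBF1 shRNA libraries, against 125, 133 and 126 CPM in the control libraries, 1.35-fold higher. COX5A and COX5B, on the matrix side, rose 1.32-fold and 1.27-fold. COX7A2, the most abundant member per length in both groups, had 788, 805 and 818 CPM in the OBF1 shRNA libraries, against 675, 704 and 689 CPM in the control libraries, with no overlap. It rose 1.17-fold and averaged 1066 against 914 RPKM in OBF1 shRNA and control libraries. COX6C rose 1.12-fold and lost the call with library sizes alone (edgeR adjusted p = 0.0859).

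The members of complex IV that did not pass were COX6A1 and COX7A2L. COX7A2L, which joins complexes III and IV in supercomplexes, had 161, 159 and 167 CPM in the OBF1 shRNA libraries, against 158, 157 and 157 CPM in the control libraries. The groups did not overlap but nearly touched, and the difference did not pass (log2 fold change 0.04, 95% interval -0.02 to 0.10, edgeR adjusted p = 0.166). COX6A1 had 190.0, 203 and 196 CPM in the OBF1 shRNA libraries, against 184, 193 and 185 CPM in the control libraries (log2 fold change 0.07, edgeR adjusted p = 0.0515). Its groups overlapped. With library sizes alone both changed sign, COX7A2L to -0.07 (edgeR adjusted p = 0.0354) and COX6A1 to -0.04 (adjusted p = 0.193). COX6A1 passed as higher with RLE factors (edgeR adjusted p = 0.0405), with no low-count filter (0.0309), with a filter of 1 CPM (0.0491), with the replicate block (0.0475) and without OBF1 shRNA replicate 1 (0.0170) or control replicate 2 (0.00978). The tissue-restricted isoforms of these subunits were not detectable at this depth. COX6A2 and COX7A1, the forms of heart and skeletal muscle, and COX7B2 had 0 counts in all 6 libraries, which allows up to 0.106 CPM in the shallowest library (3 counts, counting error only). COX6B2 and COX8C, known from testis, had 1 count in 1 library each. COXFA4, a complex IV subunit first assigned to complex I, had 241, 239 and 248 CPM in the OBF1 shRNA libraries, against 192, 198 and 195 CPM in the control libraries, 1.24-fold higher (edgeR adjusted p = 4.23e-09). Its relative COXFA4L2, known to be induced by hypoxia, moved the other way, with 2.74, 2.30 and 2.04 CPM in the OBF1 shRNA libraries, against 4.26, 4.73 and 4.35 CPM in the control libraries, 1.89-fold lower (edgeR adjusted p = 3.49e-06). COX4I1, the ubiquitous form of a core-binding subunit, rose 1.37-fold, while COX4I2, its lung form, had 1 count in 1 library.

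All 18 members of complex V rose. The F1 head, where ATP is made, is formed by ATP5F1A and ATP5F1B around the central stalk of ATP5F1C, ATP5F1D and ATP5F1E. ATP5F1A had 1175, 1162 and 1183 CPM in the OBF1 shRNA libraries, against 809, 836 and 827 CPM in the control libraries, 1.42-fold higher (log2 fold change 0.51, SE 0.02, edgeR adjusted p = 9.59e-13). ATP5F1B, the catalytic subunit, had 1763, 1705 and 1789.5 CPM in the OBF1 shRNA libraries, against 1336, 1409.9 and 1351 CPM in the control libraries, 1.28-fold higher (log2 fold change 0.36, SE 0.03, edgeR adjusted p = 1e-09). Neither overlapped between the groups. Per length, ATP5F1B reached 951 against 741 RPKM on average in OBF1 shRNA and control libraries. ATP5F1D had 66.0, 65.5 and 78.7 CPM in the OBF1 shRNA libraries, against 47.4, 55.3 and 43.2 CPM in the control libraries, 1.44-fold higher (log2 fold change 0.53, SE 0.07, edgeR adjusted p = 4.09e-06). Its libraries spread more widely, with OBF1 shRNA replicate 3 and control replicate 2 above the others of their groups. ATP5F1E rose 1.36-fold and ATP5F1C 1.21-fold. A readthrough transcript row shares the exons of ATP5F1E and held 438 CPM on average over all 6 libraries. How shared reads were divided is not given in the sources used here. A pseudogene row, ATP5F1EP2, named after its values were seen, held 26.3 against 18.8 CPM on average in OBF1 shRNA and control libraries.

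The rotating c-ring in the membrane is encoded by ATP5MC1, ATP5MC2 and ATP5MC3, which give the same mature protein behind different import sequences. ATP5MC1 had 175, 155 and 166 CPM in the OBF1 shRNA libraries, against 98.1, 106 and 102 CPM in the control libraries, 1.62-fold higher (log2 fold change 0.70, SE 0.04, edgeR adjusted p = 1.75e-11), the only member of complex V past 1.5-fold. ATP5MC3 had 419.7, 416 and 419 CPM in the OBF1 shRNA libraries, against 300.1, 308 and 303 CPM in the control libraries, 1.38-fold higher (log2 fold change 0.46, SE 0.02, edgeR adjusted p = 4.61e-12). ATP5MC2 had 184, 169 and 174 CPM in the OBF1 shRNA libraries, against 134, 137 and 132 CPM in the control libraries, 1.31-fold higher (log2 fold change 0.39, SE 0.03, edgeR adjusted p = 5.11e-09). None of the c-ring genes overlapped between the groups. Within a library, ATP5MC1 made up 22.45%, 20.99% and 21.9% of the counts of these genes in the OBF1 shRNA libraries, against 18.43%, 19.26% and 18.92% in the control libraries, and the share of ATP5MC2 was 22.84% to 23.68% against 24.63% to 25.16%. Of the peripheral stalk, which holds the head still, ATP5PD rose 1.32-fold, ATP5PB 1.28-fold, ATP5PF 1.25-fold and ATP5PO 1.17-fold. The 6 accessory membrane members, which include subunits that join ATP synthases in dimers, rose by 1.17-fold (ATP5MGL) to 1.27-fold (ATP5MG). ATP5MGL, a near copy of ATP5MG with which it may share reads, lost its call with library sizes alone (edgeR adjusted p = 0.0594). ATP5IF1, the inhibitor that keeps the synthase from running backwards, rose 1.33-fold (edgeR adjusted p = 7.05e-08).

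Besides COX4I1 and ATP5IF1, the other tested genes of the list of chain components outside the naming scheme, CYC1, CYCS and NDUFAB1, rose too. CYC1, the cytochrome c1 subunit of complex III, had 251, 232 and 239.8 CPM in the OBF1 shRNA libraries, against 176, 186 and 181 CPM in the control libraries, 1.33-fold higher (log2 fold change 0.41, SE 0.03, edgeR adjusted p = 1.07e-09). CYCS, cytochrome c itself, had 499, 436 and 445 CPM in the OBF1 shRNA libraries, against 399, 370.4 and 387 CPM in the control libraries, 1.19-fold higher (log2 fold change 0.26, SE 0.04, edgeR adjusted p = 1.44e-05). NDUFAB1, the acyl carrier protein that is also part of complex I, rose 1.23-fold. None overlapped between the groups. Among the OBF1 shRNA libraries CYCS was highest in replicate 1.

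Factors that help to make the complexes without being part of them are called assembly factors here, in a wide sense. Of the listed ones, 33 of 61 tested rose (54.1%) and 8 fell (13.1%). Over all genes tested, 37.5% rose and 37.9% fell. By complex, 9 of 18 rose and 4 fell for complex I, 4 of 4 rose for complex II, 3 of 8 rose and 1 fell for complex III, 15 of 25 rose and 2 fell for complex IV, and 2 of 6 rose and 1 fell for complex V. For complexes III and V the shares that rose, 37.5% and 33.3%, were no higher than that of all genes tested. The median log2 fold change of the 61 assembly factors was 0.17, beside 0.34 for the members and -0.01 for all genes tested. The difference between assembly factors and subunits was not tested. For complex I, NDUFAF3 rose 1.76-fold, ACAD9 1.61-fold, TMEM186 1.52-fold and NDUFAF8 1.51-fold. The factors that build complex II all rose, with log2 fold changes of 0.49 for SDHAF1, 0.17 for SDHAF2, 0.27 for SDHAF3 and 0.26 for SDHAF4. With library sizes alone SDHAF2 and SDHAF4 lost the call (edgeR adjusted p = 0.154 and 0.0741). For complex III, UQCC5 rose 1.48-fold, LYRM7 and UQCC2 1.21-fold and 1.21-fold, and TTC19 was 1.12-fold lower. COX20, which handles a mitochondrially encoded subunit of complex IV, had 43.4, 43.6 and 41.0 CPM in the OBF1 shRNA libraries, against 22.1, 22.1 and 21.6 CPM in the control libraries, 1.94-fold higher (log2 fold change 0.96, SE 0.05, edgeR adjusted p = 1.22e-12). COA4 rose 1.66-fold and the copper chaperone COX17 1.49-fold, while COX19, also of copper delivery, was 1.31-fold lower. For complex V, where all 18 nuclear-encoded members rose, the assembly factors of the F1 head ATPAF1 and ATPAF2 did not pass (log2 fold changes 0.02 and 0.04, edgeR adjusted p = 0.756 and 0.453), nor did TMEM70 (log2 fold change 0.04, edgeR adjusted p = 0.395). These 3 values turned negative with library sizes alone. FMC1 rose 1.35-fold and ATPSCKMT 1.27-fold, and TMEM242, of c-ring assembly, was 1.41-fold lower.

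**Figure D4:**
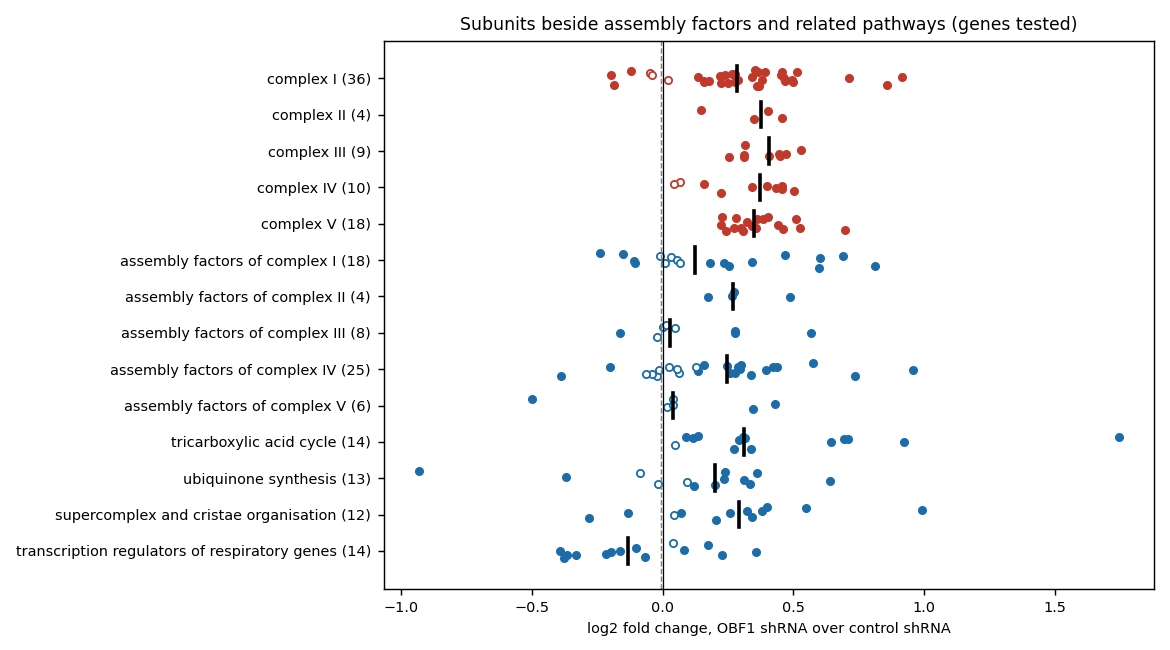
Log2 fold change of OBF1 shRNA over control shRNA for the tested members of each complex (red) and for assembly factors and related pathways (blue), with the number of genes in brackets. Each point is a gene, filled where it passed the edgeR test, thick black bars are medians and the dashed line is the median of all genes tested. The subunit medians lie between 0.28 and 0.41, and the median of the transcription regulators is -0.13.

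Pathways that feed the chain were described from lists chosen with earlier results of these data known. Their counts stand beside 37.5% higher and 37.9% lower of all genes tested, 75.4% in either direction. Of 14 genes of the tricarboxylic acid cycle, which supplies NADH and succinate, 13 rose and 0 fell. Their median log2 fold change was 0.31. IDH2, the mitochondrial NADP-dependent isocitrate dehydrogenase, had 98.4, 98.2 and 104 CPM in the OBF1 shRNA libraries, against 28.8, 31.3 and 29.5 CPM in the control libraries, 3.35-fold higher (log2 fold change 1.75, SE 0.04, edgeR adjusted p = 3.89e-17). FH, fumarase, rose 1.56-fold and IDH3G 1.62-fold. Of 13 genes of ubiquinone synthesis 8 rose and 2 fell (61.5% and 15.4%), with a median log2 fold change of 0.20. The share in either direction, 76.9%, was near that of all genes tested. COQ2, which joins the ring to the side chain, rose 1.56-fold and COQ9 1.28-fold, while COQ8A had 28.4, 30.8 and 29.9 CPM in the OBF1 shRNA libraries, against 54.9, 59.4 and 55.7 CPM in the control libraries, 1.91-fold lower, and PDSS2, of side chain synthesis, was 1.29-fold lower. Of 6 tested enzymes that pass electrons to ubiquinone by other routes, 3 rose and 2 fell (50% and 33.3%). ETFA and ETFB, the electron transfer flavoprotein of fatty acid oxidation, rose 1.23-fold and 1.39-fold. GPD2, of the glycerol phosphate shuttle, fell to 0.281, 0.591 and 0.383 CPM in the OBF1 shRNA libraries, against 9.32, 9.32 and 10.2 CPM in the control libraries, and SQOR, at 0.484 against 1.19 CPM on average in OBF1 shRNA and control libraries, also fell. Of 12 genes of supercomplexes and cristae, a list that includes COX7A2L, 9 rose and 2 fell. MICOS13 rose 1.99-fold, HIGD2A 1.46-fold, HIGD1A 1.32-fold and IMMT 1.27-fold.

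Transcripts of factors known to regulate respiratory genes or mitochondrial DNA moved in both directions. Of 14 tested, 9 fell and 4 rose, beside 37.9% lower and 37.5% higher of all genes tested, none of the 14 by 1.5-fold, and their median on the log2 scale was -0.13. TFAM, which packages and transcribes mitochondrial DNA, had 217, 212 and 211 CPM in the OBF1 shRNA libraries, against 279, 274 and 280.3 CPM in the control libraries, 1.30-fold lower (log2 fold change -0.38, SE 0.03, edgeR adjusted p = 1.77e-10). NRF1, an activator of many subunit genes, had 28.7, 27.3 and 28.2 CPM in the OBF1 shRNA libraries, against 34.8, 35.5 and 35.6 CPM in the control libraries, 1.26-fold lower (log2 fold change -0.33, SE 0.04, edgeR adjusted p = 1.76e-06). GABPB1, a subunit of the Ets-family activator GABP, had 42.3, 38.9 and 40.8 CPM in the OBF1 shRNA libraries, against 51.4, 52.2 and 53.4 CPM in the control libraries, 1.29-fold lower (log2 fold change -0.36, SE 0.04, edgeR adjusted p = 2.72e-07). YY1 was 1.15-fold lower. For these 4 genes every OBF1 shRNA library was below every control library. The 4 that rose, named after their values were seen, were TEFM, the elongation factor of mitochondrial transcription (log2 fold change 0.36, SE 0.06, edgeR adjusted p = 2.26e-05), POLRMT, the mitochondrial RNA polymerase (log2 fold change 0.23, edgeR adjusted p = 0.00114), ESRRA (log2 fold change 0.17, edgeR adjusted p = 0.00204) and PPARGC1B (log2 fold change 0.08, edgeR adjusted p = 0.0397). The calls of POLRMT (edgeR adjusted p = 0.0553) and ESRRA (0.188) were lost with library sizes alone, and the sign of PPARGC1B turned (log2 fold change -0.03). PPARGC1B also lost its call with DESeq2 (adjusted p = 0.0522), with upper-quartile factors (edgeR adjusted p = 0.124), with the replicate block (0.0756), and without OBF1 shRNA replicate 1 (0.0614) or 2 (0.139) or control replicate 2 (0.168) or 3 (0.0532). PPARGC1A, a coactivator of mitochondrial biogenesis, was not tested, at 0.0439 and 0.0312 CPM on average in OBF1 shRNA and control libraries.

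Within groups, the members of most libraries lay more often on one side of the group's mean. Control replicates 1, 2 and 3 were above it for 12, 66 and 26 of the 77 members. OBF1 shRNA replicates 1, 2 and 3 were above it for 40, 25 and 63. Median deviations on the log2 scale were 0.04 for control replicate 2, 0.02 for OBF1 shRNA replicate 3 and 0.002 for OBF1 shRNA replicate 1. The same counts were not made over all genes tested, so whether members differ from other genes in this was not tested. Without control replicate 2 the counts were 70 higher and 2 lower and the median log2 fold change of the members 0.37. By RefSeq's gene coordinates 24 of the 82 members overlap another gene of the table, and how such reads were counted is not given in the sources used here.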

How the data were processed

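The 6 libraries, 3 per hairpin, were made with the TruSeq Stranded mRNA kit, per the labels. The authors deposited 1 table of raw read counts per gene with gene lengths. The submitters' processing notes list hg19 and mm9; for aligner, counter, annotation and strand setting nothing is given in the sources used here. Of 23459 rows, 23308 matched a RefSeq gene ID (GRCh38.p14), which gave symbols. The other 151 (0.115% to 0.138% of counts) stayed in the tests. All 6 count columns were used.

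The tests used edgeR 4.0.16 under R 4.3.3: filterByExpr (min.count 10, min.total.count 15), TMM, and the quasi-likelihood F test on 12010 genes, with Benjamini-Hochberg adjustment at 0.05. The code was also run on simulated counts with few changed genes and the same dispersion for every gene. That run cannot speak for scaling in these data, where 75.4% of genes passed. The SE is the size of the log2 fold change divided by the square root of F. The common biological coefficient of variation was 0.0269. Chi-square per degree of freedom between libraries of a group was 1.88 to 3.26.

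Members and lists were chosen with earlier results of these data known. Named are POU2AF1, for each of complexes I, III, IV and V the 3 largest called changes in each direction at a mean of at least 5 CPM, complex II, members changed 1.5-fold, isoform sets, and up to 4 called genes per list with the smallest p-values; all genes of lists of at most 6 genes may be named. Other members are given by fold, and a few genes are not reported here by name or in the marker sums. Alternatives were DESeq2 1.42.0, limma-voom (3.58.1), RLE, upper-quartile and library-size scaling, 2 other filters, the replicate number as a block, leaving out each library and glmTreat against 1.2-fold.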

Additional observations from a re-analysis of the deposited data

How the results depend on the processing

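The rise of the members depended little on the tool and more on scaling and on the size of change asked for. Between 68 and 70 members rose and 2 or 3 fell under DESeq2, limma-voom, RLE and upper-quartile factors, both other filters and the replicate block, and with 1 library left out. With library sizes alone 63 rose and 7 fell, and the medians of complexes I to V were 0.17, 0.27, 0.30, 0.26 and 0.24. Against a fold of 1.2, glmTreat called 45 higher and 0 lower. With 1 library left out the medians ranged from 0.29 to 0.31 (I), 0.36 to 0.39 (II), 0.38 to 0.44 (III), 0.34 to 0.43 (IV) and 0.33 to 0.37 (V). POU2AF1 stayed called and lower in every alternative run.

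Some values changed sign, and of these only PPARGC1B had passed the test. With library sizes alone they were NDUFA12 (-0.090), COX6A1 (-0.043), COX7A2L (-0.066), ATPAF1 (-0.094), ATPAF2 (-0.070), TMEM70 (-0.069) and PPARGC1B (-0.028). With upper-quartile factors they were NDUFA12 (-0.00070) and ATPAF1 (-0.0042). With 1 library left out NDUFA12 ranged from -0.013 (without OBF1 shRNA replicate 3) to 0.069, and the myeloid marker CSF1R from -0.00013 (without OBF1 shRNA replicate 1) to 0.66.

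Same-numbered libraries deviated from their group means with correlations of 0.03, -0.17 and -0.11, and differently numbered ones with -0.10 to 0.20. With 3 libraries per group these values cannot settle whether the replicate numbers pair the libraries. With the number as a replicate block 70 members rose and 2 fell, COX6A1 passing and NDUFS4 not. Depth limits the isoforms at 0 or 1 count and not the other members, which had at least 457 counts in every library.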
